A study of Homo sapiens with 6 samples.

Results

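The machinery described here consists of 10 genes that govern entry into the cell division cycle. They are the D cyclins CCND1, CCND2 and CCND3, their kinases CDK4 and CDK6, the CIP/KIP inhibitors CDKN1A and CDKN1B, and the INK4 inhibitors CDKN2A, CDKN2C and CDKN2D. They were taken by name, and each is given by its brightest probe set with 1 gene symbol over the 6 arrays. Of the 10 genes, 9 had such a probe set, among 33616 genes in all; CDKN2C was not analysed here. Of these 9, 8 passed the filter on low values that left 21070 genes for testing, and CDKN1A did not.

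Gene expression was measured in LP-1 cells, an established human multiple myeloma line, in 3 groups of 2 arrays described as biological replicates. Ctrl cells grew in control medium at pHe 7.4, pHe being the pH outside the cells, and are labelled 9 months. SA cells (short-term acidification) grew in acidic medium at pHe 6.8 and are labelled 2 weeks, which the descriptions give as 2 to 3 weeks and the series design as 2 to 4 weeks. LA cells (long-term acidification) grew in the acidic medium too, at pHe 6.8, and are labelled 9 months, given as 8 to 10 months in the design and as 8 to 10 weeks in the descriptions. All groups are the same line, and 1 growth protocol, RPMI-1640 with serum, is given for all. SA cells differ from Ctrl cells in time label as well as in pHe, so in that comparison time in culture and pHe cannot be told apart. SA and LA cells share pHe 6.8 and differ in time label, so there time in culture and time at pHe 6.8 cannot be told apart.

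All values are on the deposited log scale, taken to be log2, where a difference of 1 is a doubling. Array medians over all probe sets lay between 3.77 and 3.80, and the brightest probe set of any array reached 20.02. The 9 plasma cell markers examined, among them SDC1, TNFRSF17 and IRF4, had means of at least 10 and lay above the array median on all 6 arrays. No marker of B cells, T and NK cells, monocytes or red cells reached a mean of 10, and of the stromal and endothelial markers only PECAM1 did. Of these other-cell markers, 0 were called with limma in any comparison. The median level of the plasma cell markers was 14.6 in Ctrl, 16.5 in SA and 14.5 in LA. It fell on TNFRSF17 in SA and on XBP1 in LA, so it does not measure a shared shift. From Ctrl to SA, TNFRSF17 went from 14.22 to 16.51 and SDC1 from 11.80 to 11.27. Of the 9, 3 were called in SA and 2 in LA against Ctrl, and 3 in LA against SA. Of all genes tested, limma called 6.23% higher and 8.55% lower in SA against Ctrl. The shares were 1.61% and 1.59% in LA against Ctrl, and 8.7% and 7.24% in LA against SA. All 14 proliferation markers fell in SA cells against Ctrl (median -1.32, 11 with the block) and 0 were called in LA against Ctrl (median 0.12). With the block 6.39% of all genes tested were called in SA and 1.32% in LA against Ctrl. As few genes of any kind were called in LA against Ctrl, the 0 of 14 alone says little. MKI67, for example, was at 13.25 and 13.58 in Ctrl, 10.35 and 10.19 in SA, and 13.54 and 13.15 in LA. Bulk arrays cannot tell fewer dividing cells from less RNA per cell, and the part of cell division in the differences of the G1 genes was not tested. The difference between replicate 1 and replicate 2 arrays held 1.18% of the within-group sum of squares in these values, against 33.3% if replicate numbers carried nothing, so p-values are given both without and with replicate number as a block.

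D cyclins are short-lived regulatory subunits made in response to growth signals. They bind CDK4 or CDK6, and the complexes phosphorylate the retinoblastoma protein, which releases E2F factors to switch on genes of DNA synthesis. INK4 proteins bind CDK4 and CDK6 and block the pairing with D cyclins, whereas CIP/KIP proteins inhibit kinases bound to cyclins E and A and also help assemble D cyclin complexes. In myeloma a D cyclin is expressed above normal plasma cells in nearly every tumour. LP-1 carries the translocation that joins NSD2 and FGFR3 to the immunoglobulin heavy chain locus, a class of myeloma in which CCND2 is the usual D cyclin.

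CDKN2A showed the widest range of the members, low in SA cells and high in LA cells. It fell 2.90-fold in SA and rose 2.49-fold in LA against Ctrl, and it was 7.24-fold higher in LA than in SA. CDK6 took the same order, with a 1.98-fold fall in SA and a 2.85-fold difference between LA and SA. CCND3 took the opposite order and was 1.64-fold lower in LA than in SA, and CDKN1B was 1.60-fold higher in LA than in SA. With replicate number as a block, the fall of CDKN2A in SA and the differences of CDKN2A and CDK6 between LA and SA passed. The other 4 did not: adjusted p was 0.0888 for CDKN2A in LA against Ctrl, 0.0621 for CDK6 in SA, 0.113 for CCND3 and 0.139 for CDKN1B. No difference passed the test for CCND1, CCND2, CDK4 or CDKN2D.

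**Figure D1:**
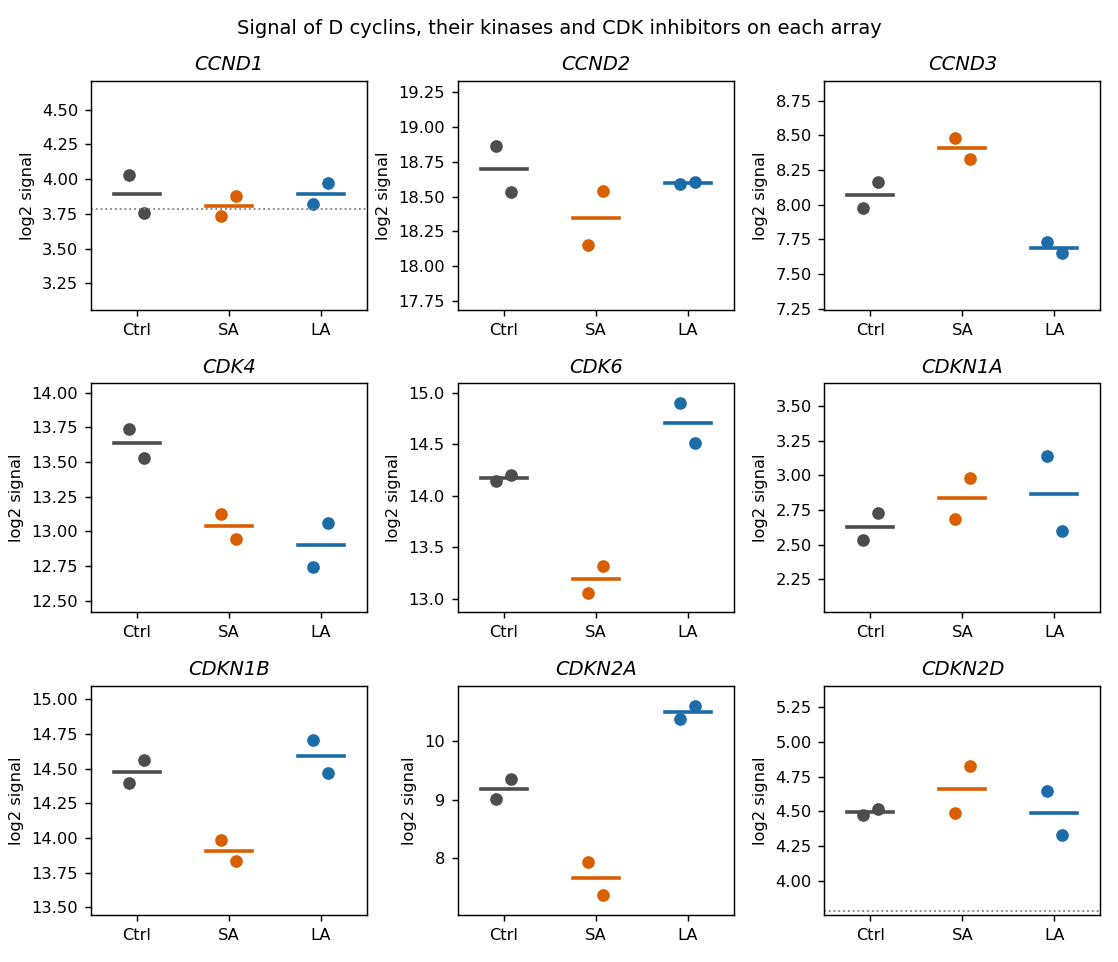
Log2 signal (vertical axes, each with its own range) of the brightest probe set of 9 members on the 2 arrays of each group (points) with the group mean (bars). The dotted line, where the range reaches it, is the median over all probe sets. CDKN2A, CDK6 and CDKN1B are lowest in SA, CCND3 is highest in SA, and CDK4 is highest in Ctrl.

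The reference promoters of the genes that were lowest in SA and highest in LA are shown because CDKN2A has separate starts for its products. Sequences are RefSeq windows of 300 bases on GRCh38.p14, from 250 bases before to 50 after a transcript start, printed in the direction of transcription. Capitals mark the GC box GGGCGG, which Sp1 family factors bind, on either strand. CDKN2A lies on the minus strand of chromosome 9. Its upstream start, that of the p14ARF transcript, is at chr9:21995275-21995574, and the p16 start is at chr9:21974808-21975107. CDK6 has 2 windows on the minus strand, chr7:92836524-92836823 and chr7:92833910-92834209, and CDKN1B has 1 on the plus strand, chr12:12717118-12717417.
CDKN2A upstream start: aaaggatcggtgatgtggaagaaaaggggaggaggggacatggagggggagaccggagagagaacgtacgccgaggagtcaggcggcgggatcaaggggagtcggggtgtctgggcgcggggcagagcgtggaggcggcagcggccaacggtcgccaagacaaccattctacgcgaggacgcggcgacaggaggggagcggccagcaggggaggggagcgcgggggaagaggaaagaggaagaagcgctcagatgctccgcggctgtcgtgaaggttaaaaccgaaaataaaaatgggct
CDKN2A downstream start: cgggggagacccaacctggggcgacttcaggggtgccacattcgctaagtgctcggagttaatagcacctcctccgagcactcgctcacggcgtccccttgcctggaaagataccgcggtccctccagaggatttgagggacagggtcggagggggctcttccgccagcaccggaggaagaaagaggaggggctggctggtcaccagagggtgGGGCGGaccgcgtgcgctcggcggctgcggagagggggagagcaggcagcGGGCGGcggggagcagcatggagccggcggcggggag
CDK6 upstream start: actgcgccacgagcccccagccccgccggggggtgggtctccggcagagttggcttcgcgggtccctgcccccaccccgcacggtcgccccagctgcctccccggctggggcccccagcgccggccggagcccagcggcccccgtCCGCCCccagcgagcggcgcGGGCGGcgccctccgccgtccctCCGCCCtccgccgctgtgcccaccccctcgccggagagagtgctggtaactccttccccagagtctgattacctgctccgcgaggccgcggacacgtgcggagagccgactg
CDK6 downstream start: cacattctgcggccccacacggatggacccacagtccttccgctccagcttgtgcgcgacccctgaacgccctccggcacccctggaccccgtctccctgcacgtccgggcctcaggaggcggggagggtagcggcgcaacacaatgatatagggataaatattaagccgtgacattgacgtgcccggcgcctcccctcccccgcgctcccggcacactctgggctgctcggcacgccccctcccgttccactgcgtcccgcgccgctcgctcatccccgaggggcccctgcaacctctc
CDKN1B start: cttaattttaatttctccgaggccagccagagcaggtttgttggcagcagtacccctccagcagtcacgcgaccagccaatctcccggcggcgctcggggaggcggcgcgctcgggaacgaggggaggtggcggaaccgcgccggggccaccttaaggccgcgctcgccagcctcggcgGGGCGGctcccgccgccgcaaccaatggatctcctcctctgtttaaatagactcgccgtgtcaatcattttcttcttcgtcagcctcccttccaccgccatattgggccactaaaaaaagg
The p16 window holds 2 GC boxes and the p14ARF window 0, the CDK6 windows 3 and 0, and the CDKN1B window 1. Over the 11 promoters of the 7 members with both a value and a window, 8 held the GC box, which is in 45% of 35116 promoters of this length. The E2F-type letters TTTCGCGC, TTTGGCGC or TTTCCCGC on either strand, in 2.74% of all promoters, and the TATA box letters TATAAA, in 11.5%, were in 0 of the 11. As only the GC box was found, no motifs of different kinds overlapped. Both CDKN2A windows are rich in CpG: the p14ARF window holds 28 CpG and its ratio of observed to expected CpG is above that of 98.3% of all promoters, while the p16 window holds 26 and is above 64.1%.

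Among the D cyclins, CCND2 was bright on every array and CCND1 was near the array median. CCND2 was at 18.86 and 18.53 in Ctrl, 18.15 and 18.54 in SA, and 18.59 and 18.61 in LA. The SA arrays overlapped the Ctrl arrays, as did the LA arrays. SA minus Ctrl was -0.35 ± 0.19 (log2 difference ± SE, limma adjusted p = 0.285), with a 95% interval of -0.95 to 0.25 in the blocked fit. LA minus Ctrl was -0.10 ± 0.19 (adjusted p = 0.837), with an interval of -0.69 to 0.50. These intervals leave room for a fall of CCND2 by nearly 1 in SA cells. The probe set lay above at least 99.7% of all probe sets on each array, close to the top of the scale. Differences may be compressed there, which was not tested.

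CCND1, the D cyclin of myelomas with translocations to its own locus, was at 4.03 and 3.75 in Ctrl, 3.73 and 3.88 in SA, and 3.82 and 3.98 in LA. It lay above the array median on 4 of the 6 arrays and is therefore at the level of background, so its differences of -0.09 to 0.09 say little about the transcript.

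CCND3, a D cyclin that B lineage cells depend on, was at 7.98 and 8.16 in Ctrl, 8.48 and 8.33 in SA, and 7.73 and 7.65 in LA. The 3 groups did not overlap: SA arrays were highest and LA arrays lowest. CCND3 was lower in LA than in SA by a log2 difference of -0.72 ± 0.15 (limma adjusted p = 0.025, and 0.113 with the block). The differences from Ctrl, 0.33 ± 0.15 in SA and -0.38 ± 0.15 in LA, did not pass the test (adjusted p = 0.185 and 0.221). Leaving out SA replicate 1, SA replicate 2, LA replicate 1 or LA replicate 2 ended the call between LA and SA, with adjusted p = 0.112, 0.0649, 0.104 and 0.128. A second, dim probe set of CCND3 lay between 2.63 and 3.91 and failed the filter on low values.

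Of the kinases, CDK6 passed the test in 2 comparisons and CDK4 in none. CDK6 was at 14.14 and 14.21 in Ctrl, 13.06 and 13.32 in SA, and 14.90 and 14.51 in LA, with no overlap between any groups. It fell by 0.98 ± 0.19 in SA against Ctrl (limma adjusted p = 0.0219, and 0.0621 with the block) and was higher in LA than in SA by 1.51 ± 0.19 (adjusted p = 0.00519, and 0.0106 with the block). LA minus Ctrl was 0.53 ± 0.19 (adjusted p = 0.191). The call between LA and SA held when any 1 array was left out, at a highest adjusted p of 0.023. The call in SA against Ctrl was lost without Ctrl replicate 1 (adjusted p = 0.0668), Ctrl replicate 2 (0.085) or SA replicate 1 (0.0737).

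CDK4 was at 13.74 and 13.53 in Ctrl, 13.13 and 12.94 in SA, and 12.74 and 13.06 in LA. Both Ctrl arrays were above all 4 acid arrays, while SA and LA overlapped. SA minus Ctrl was -0.60 ± 0.18 and LA minus Ctrl -0.73 ± 0.18, and neither passed the test (limma adjusted p = 0.0734 and 0.0904, and 0.209 and 0.284 with the block). LA minus SA was -0.13, with a blocked 95% interval of -0.71 to 0.44. On the same array, the log2 signal of CDK6 minus that of CDK4 was 0.40 and 0.67 in Ctrl, -0.07 and 0.38 in SA, and 2.15 and 1.45 in LA. This within-array difference compares 2 probe sets, so only its shift between groups can be read, and it was highest on both LA arrays; this shift was not tested.

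**Figure D2:**
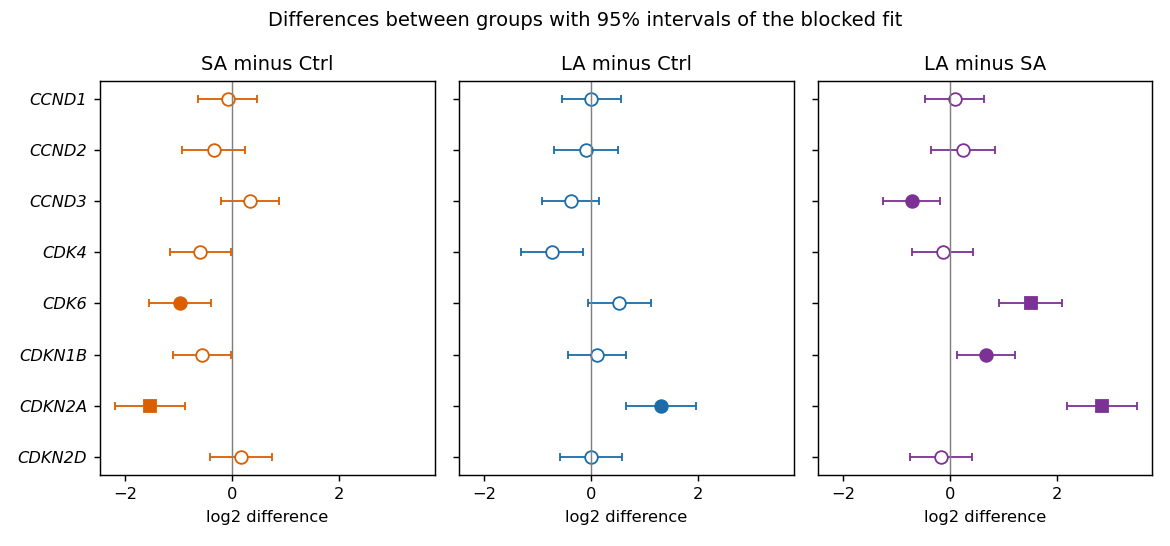
Log2 difference (horizontal axis) of the 8 tested members, with a panel for each of the 3 comparisons. Filled symbols passed limma's adjusted p under 0.05 without the block, squares passed with it too, and bars are 95% intervals of the blocked fit. CDKN2A in SA minus Ctrl and in LA minus SA, and CDK6 in LA minus SA, are the squares.

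Of the CIP/KIP inhibitors, CDKN1B encodes p27, an inhibitor abundant in resting cells and removed by the SKP2 ubiquitin ligase. CDKN1B was at 14.39 and 14.56 in Ctrl, 13.99 and 13.83 in SA, and 14.71 and 14.47 in LA. SA arrays were below all others, and Ctrl and LA overlapped. It was higher in LA than in SA by 0.68 ± 0.16 (limma adjusted p = 0.0379, and 0.139 with the block). SA minus Ctrl was -0.57 ± 0.16 (adjusted p = 0.0651, and 0.213 with the block). In leave-one-out fits the adjusted p of LA minus SA was 0.0588 without Ctrl replicate 1 or Ctrl replicate 2, 0.203 without LA replicate 1, 0.0823 without LA replicate 2, 0.0832 without SA replicate 1 and 0.15 without SA replicate 2, so the call rests on all 6 arrays. SKP2 itself was higher in LA than in SA by 1.35 ± 0.20 (adjusted p = 0.00968), as was its partner CKS1B, by 1.62 ± 0.26.

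CDKN1A encodes p21, the inhibitor that p53 induces. It was at 2.54 and 2.73 in Ctrl, 2.69 and 2.98 in SA, and 3.14 and 2.60 in LA, below the array median on all 6 arrays. At this level no difference could be measured, and CDKN1A was not tested. The third gene of the family, CDKN1C, which encodes p57 and was not among the 10, was at 7.48 and 7.31 in Ctrl, 7.67 and 7.88 in SA, and 7.15 and 7.21 in LA. Like CCND3 it was lower in LA than in SA, by a log2 difference of -0.59 ± 0.15 (limma adjusted p = 0.0469, and 0.189 with the block).

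Among the INK4 inhibitors, CDKN2A encodes p16, an inhibitor of CDK4 and CDK6, and from another first exon p14ARF, an inhibitor of MDM2. The probe set gives 1 value for the gene, so the 2 products cannot be told apart here. CDKN2A was at 9.02 and 9.35 in Ctrl, 7.93 and 7.36 in SA, and 10.39 and 10.61 in LA. No groups overlapped, and each step was larger than the gap between replicates. It fell by 1.54 ± 0.24 in SA against Ctrl (limma adjusted p = 0.0129, and 0.0209 with the block). It rose by 1.32 ± 0.24 in LA against Ctrl (adjusted p = 0.0461, and 0.0888 with the block). LA minus SA was 2.86 ± 0.24 (adjusted p = 0.00158, and 0.00118 with the block). The fall in SA and the difference between LA and SA passed in every one of 13 alternative settings, with adjusted p of at most 0.0463 and 0.00615. The rise in LA was lost without Ctrl replicate 1 (adjusted p = 0.16), Ctrl replicate 2 (0.0842), LA replicate 1 (0.134) or LA replicate 2 (0.159), and with no filter on low values (0.064).

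CDKN2D encodes p19INK4d, which oscillates with the cell cycle in dividing cells. It was at 4.47 and 4.52 in Ctrl, 4.49 and 4.83 in SA, and 4.65 and 4.33 in LA, above the array median on all 6 arrays. The signal was still low, above 65.5% to 74.1% of all probe sets, so a change of the transcript may be missed. Groups overlapped in every comparison, with differences from -0.17 to 0.16 (limma adjusted p of 0.594 or more). CDKN2B, the INK4 gene beside CDKN2A and not among the 10, was at 5.84 and 6.13 in Ctrl, 5.78 and 5.70 in SA, and 6.30 and 6.11 in LA. Its differences took the signs of CDKN2A, -0.25 in SA and 0.22 in LA against Ctrl, and did not pass the test (adjusted p = 0.37 and 0.514).

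Counted over the 8 tested members, 2 fell and 0 rose in SA against Ctrl, where limma called 8.55% of all genes tested lower and 6.23% higher. In LA against Ctrl, 1 rose and 0 fell, beside 1.61% and 1.59% of all genes. In LA against SA, 3 were higher and 1 lower, beside 8.7% and 7.24%. With the block, 1, 0 and 2 members were called in the 3 comparisons, beside 6.39%, 1.32% and 8.65% of all genes. At an unadjusted p under 0.05, 4 members passed in each comparison without the block, and 4, 2 and 4 with it. Arrays of the 2 groups did not overlap for 5, 4 and 5 of the 8 members, against 57.2%, 50.4% and 57.5% of all genes, so the non-overlap noted above is common in these data. Median differences of the 8 were -0.46 in SA, -0.0007 in LA against Ctrl and 0.17 between LA and SA, and those of all genes tested were -0.04, -0.03 and 0.01. SA minus Ctrl and LA minus Ctrl share their control arrays. Of all genes tested, 56 (0.266%) were called lower in SA and higher in LA than in Ctrl, and CDKN2A is 1 of them.

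Genes beside CDKN2A on chromosome 9 were examined next, taking the nearest 5 protein-coding genes kept on each side. MTAP, the methionine salvage enzyme whose gene adjoins CDKN2A, was at 10.05 and 10.25 in Ctrl, 9.18 and 9.05 in SA, and 10.61 and 10.44 in LA. It fell by 1.04 ± 0.15 in SA (limma adjusted p = 0.0111, and 0.0418 with the block) and was higher in LA than in SA by 1.42 ± 0.15 (adjusted p = 0.00335, and 0.0103 with the block). DMRTA1, on the other side past CDKN2B, was at 6.005 and 6.002 in Ctrl, 5.88 and 5.72 in SA, and 7.10 and 7.22 in LA. It rose by 1.16 ± 0.14 in LA against Ctrl (adjusted p = 0.0152, and 0.0642 with the block). TUSC1 fell by 0.80 in SA, and IFNA5, an interferon gene, rose by 0.78, neither with the block (adjusted p = 0.093 and 0.0873). TUSC1 was higher by 0.74 in LA than in SA (0.111 with the block). The median of the 10 neighbours was -0.35 in SA and -0.04 in LA against Ctrl, and 0.40 in LA against SA. Between LA and SA, 3 of the 10 were called higher and 0 lower (2 and 0 with the block), beside 8.7% and 7.24% of all genes tested. DMRTA1 was among them, higher by 1.36 in LA (limma adjusted p = 0.00295, and 0.0108 with the block). A change shared by the region was not tested.

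**Figure D3:**
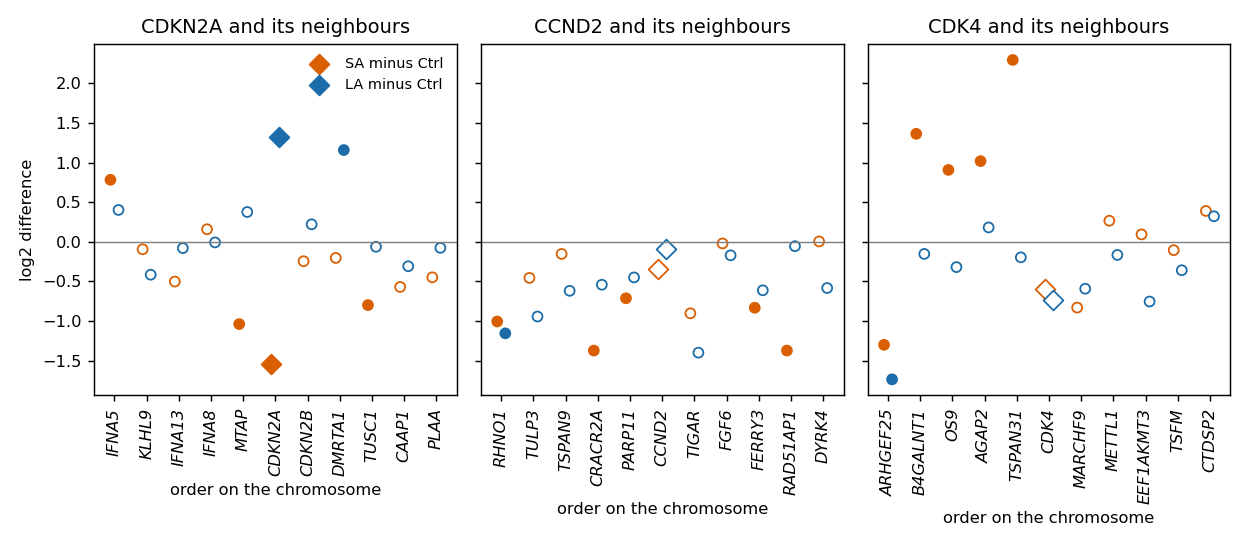
Log2 difference from Ctrl (vertical axis) of CDKN2A, CCND2 and CDK4 (diamonds) and of the nearest 5 protein-coding genes kept on each side (circles), in order along the chromosome; filled symbols passed limma's adjusted p under 0.05 without the block. MTAP lies beside CDKN2A at -1.04 in SA, and TSPAN31 beside CDK4 at 2.30 in SA.

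Around CCND2 on chromosome 12, 5 of 10 neighbours fell in SA and 0 rose, and 3 of the falls were also called with the block. Over all genes tested in SA against Ctrl, 8.55% were called lower and 6.23% higher, and 6.39% in either direction with the block. The median of the 10 was -0.77. RAD51AP1, a recombination protein, fell by 1.37, CRACR2A by 1.37 and RHNO1 by 1.01, all with the block too, while CCND2 differed by -0.35. FERRY3 fell by 0.83 and PARP11 by 0.71, and both lost the call with the block. Between LA and SA, RAD51AP1 was higher in LA by 1.32 and DYRK4 differed by -0.59, the latter not called with the block. In LA against Ctrl the neighbours had a median of -0.60, and RHNO1 was the 1 called, lower by a log2 difference of -1.16 (adjusted p = 0.0233, and 0.0762 with the block). Beside CDK4, on the same chromosome, TSPAN31 rose by 2.30 in SA, B4GALNT1, which makes complex gangliosides, by 1.36, AGAP2 by 1.02 and OS9, a protein of endoplasmic reticulum degradation, by 0.91; OS9 lost the call with the block (0.0673). ARHGEF25, also beside CDK4, fell by 1.30 in SA and differed by -1.74 in LA against Ctrl (adjusted p = 0.0415 and 0.0443, and 0.0603 and 0.0554 with the block). CDK4 itself was at -0.60 in SA, with 4 called neighbours above 0 and 1 below. Over all genes tested in LA against SA, 7.24% were called lower and 8.7% higher, and 8.65% in either direction with the block. In that comparison 4 of the neighbours of CDK4 were called lower and 0 higher (3 and 0 with the block). The differences were -2.49 for TSPAN31, -1.52 for B4GALNT1, -1.23 for OS9 and -0.84 for AGAP2, the last not called with the block. Among the neighbours of CDKN1B, GPR19 fell by 1.46 in SA and was higher by 1.86 in LA than in SA, and DUSP16, a MAP kinase phosphatase, rose by 1.16 in SA. Of the neighbours of CDK6, RBM48, GATAD1 and VPS50 rose in SA, by 1.20, 0.96 and 0.90, and FAM133B fell by 0.68; with the block RBM48 alone was called. BET1, a vesicle transport protein, was lower in LA than in SA by a log2 difference of -1.76. In the same comparison GATAD1 differed by -0.98 and RBM48 by -0.76, the latter not called with the block. Beside CDKN1A, STK38 and C6orf89 rose in SA by 0.78 and 0.84 and PIM1, a kinase, fell by 0.93, and 0 of these were called with the block. Beside CDKN2D, SLC44A2 was lower in LA than in SA by a log2 difference of -1.57. No neighbour of CCND1 or CCND3 was called in any comparison.

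The transcription factor MAF is known to activate CCND2 and the integrin gene ITGB7 in myeloma. Both MAF and ITGB7 changed, while CCND2 did not pass the test. CCND2 lies near the top of the scale, where differences may be compressed, but compression was not tested. Its blocked interval in SA minus Ctrl reached -0.95. A link of MAF to either gene was not tested. MAF was at 12.59 and 12.65 in Ctrl, 10.87 and 10.55 in SA, and 14.30 and 14.54 in LA. It fell by 1.90 ± 0.17 in SA and rose by 1.80 ± 0.17 in LA (limma adjusted p = 0.00347 and 0.00779, both called with the block). ITGB7 was at 11.65 and 11.51 in Ctrl, 6.41 and 6.46 in SA, and 14.26 and 14.35 in LA, so that both genes had the order of CDKN2A and CDK6. NSD2 was at 11.35 and 11.73 in Ctrl, 11.02 and 10.64 in SA, and 12.65 and 12.46 in LA, and was higher in LA than in SA by 1.72 ± 0.21 (adjusted p = 0.00491). FGFR3, the other gene of the translocation, lay between 3.14 and 3.52, below the array median on every array. Of the 9 tested genes in the list of inputs to D cyclins, 2 rose and 2 fell in SA, and 3 rose and 0 fell in LA against Ctrl (median -0.29 and 0.72). With the block 1 rose and 2 fell in SA, and 2 rose in LA. Over all genes tested, limma called 6.23% higher and 8.55% lower in SA, and 1.61% and 1.59% in LA against Ctrl.

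**Figure D4:**
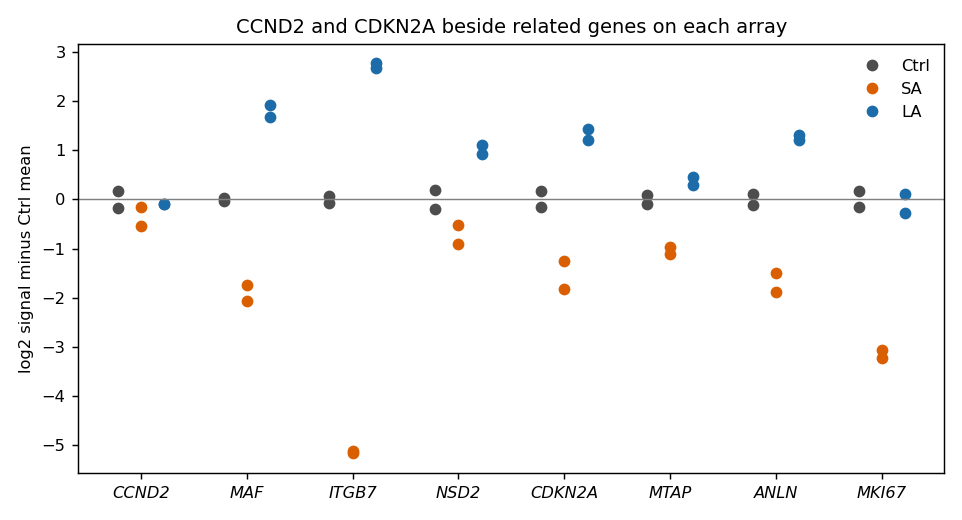
Log2 signal of each array minus the Ctrl mean of the same gene (vertical axis) for CCND2 and CDKN2A and for 6 related genes, with 2 arrays per group. CCND2 stays within 0.6 of its Ctrl mean on all arrays, while MAF and ITGB7 are low on both SA and high on both LA arrays.

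Downstream of the D cyclin kinases, 8 of 11 genes of cyclins E, A and B, their kinases and CDC25 phosphatases fell in SA against Ctrl and 0 rose (median -1.08, 4 with the block). Among all genes tested, limma called 8.55% lower and 6.23% higher in SA, and 1.59% and 1.61% in LA against Ctrl. CDC25A, which activates CDK2, fell by 1.83 ± 0.22, and CDK1, the mitotic kinase, fell by 1.77 ± 0.28. In LA against Ctrl 1 of the 11 was called: CCNE2, a cyclin E, was at 10.19 and 10.39 in Ctrl and 11.62 and 11.54 in LA and rose by 1.29 ± 0.16 (limma adjusted p = 0.0173, and 0.0507 with the block). CCNE2 had fallen in SA, by 0.68 ± 0.16 (adjusted p = 0.0419, and 0.144 with the block), so it shares the order of CDKN2A. The other cyclin E gene, CCNE1, differed by -0.49 and -0.20 (adjusted p = 0.138 and 0.62). Of the 13 RB and E2F genes, 6 fell in SA and 1, E2F2, rose in LA against Ctrl (medians -0.58 and -0.03). With the block 3 fell in SA and 0 were called in LA, where E2F2 had an adjusted p of 0.0862. RB1, the retinoblastoma gene itself, stayed between 8.91 and 9.26 on all arrays, with differences of 0.17 and 0.24 from Ctrl that did not pass the test (adjusted p = 0.457 and 0.4).

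Of 18 genes that control turnover of D cyclins and CIP/KIP proteins, 6 fell in SA (2 with the block) and 0 were called in LA against Ctrl, with medians of -0.34 and -0.13. The share of all genes tested called lower in SA was 8.55%. CKS2, a kinase-binding subunit, fell by 1.86 ± 0.35, and DDB1, an adaptor of the CUL4 ubiquitin ligase, by 1.37 ± 0.17.

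Other lists bear on the inhibitors. For comparison, limma called 6.23% of all genes tested higher and 8.55% lower in SA, and 1.61% and 1.59% in LA against Ctrl. With the block the shares in either direction were 6.39% in SA and 1.32% in LA. Of 21 tested genes of the p53 list, 3 rose and 2 fell in SA, and 2 rose and 1 fell in LA against Ctrl (medians 0.18 and 0.08). With the block 2 rose and 0 fell in SA, and 0 were called in LA. RRM2B, a ribonucleotide reductase subunit, rose by 1.39 in SA and SESN1, a sestrin, by 1.01, whereas BAX fell by 0.78 (adjusted p = 0.0154, and 0.086 with the block). MDM2, a p53 target like CDKN1A, was at 12.70 and 13.17 in Ctrl, 13.24 and 13.03 in SA, and 12.44 and 12.05 in LA, and was lower in LA than in SA by a log2 difference of -0.89 (limma adjusted p = 0.047, and 0.0984 with the block). Of 10 FOXO factors and targets, 4 rose in SA and 2 in LA against Ctrl, and 0 fell in either (medians 0.47 and 0.09; 2 and 1 rose with the block). FOXO factors are known to activate CDKN1B. TXNIP, which restrains glucose uptake, rose by 2.82 ± 0.22 in SA and by 2.19 ± 0.22 in LA, and FOXO3 rose by 1.23 ± 0.28 in SA (adjusted p = 0.0385, and 0.0605 with the block). In the same SA cells CDKN1B differed by -0.57, which did not pass the test (limma adjusted p = 0.0651). A link of FOXO factors to CDKN1B was not tested.

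**Figure D5:**
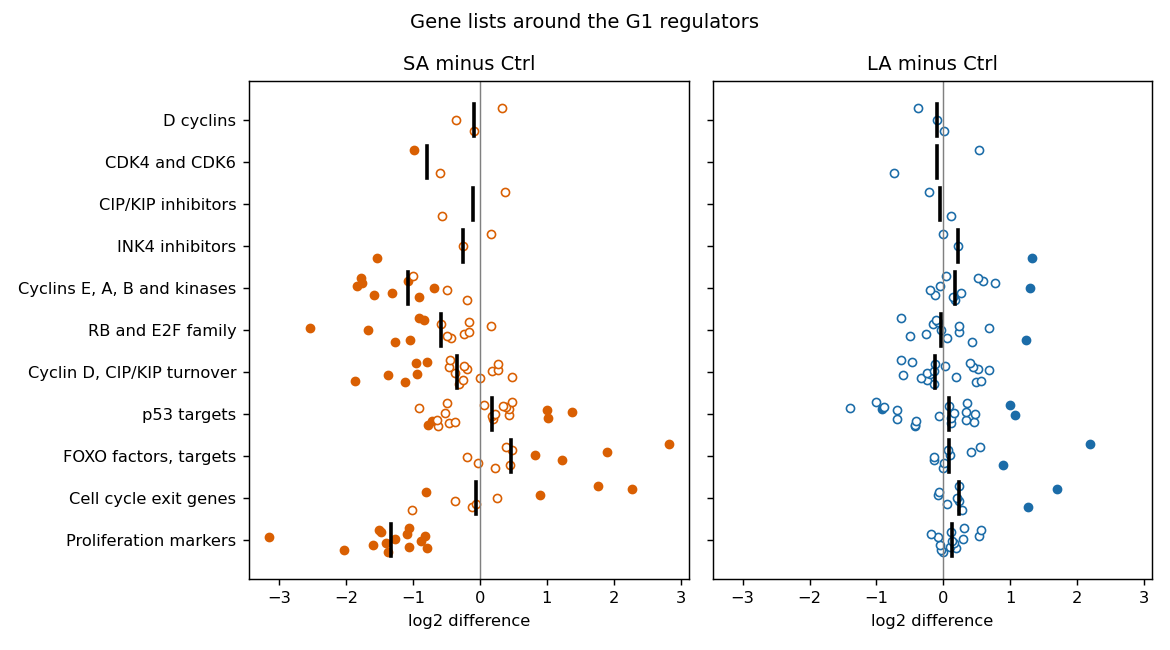
Log2 difference from Ctrl (horizontal axis) of each tested gene in lists around the G1 regulators; filled points passed limma's adjusted p under 0.05 without the block, and black bars are list medians. All 14 proliferation markers are filled and below 0 in SA, and 0 are filled in LA.

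For the members called in at least 1 comparison, the 3 most similar of 12213 protein-coding genes were found by the root mean square difference of gene-centred log2 values over the 6 arrays. ANLN, a cytokinesis protein, was nearest to CDKN2A, at 0.13, followed by GBE1, a glycogen branching enzyme, at 0.18 and IQGAP2, a scaffold protein, at 0.19. ANLN was at 11.87 and 12.08 in Ctrl, 10.48 and 10.09 in SA, and 13.29 and 13.19 in LA. GGA1, a trafficking adaptor, was nearest to CDK6 at 0.07, followed by ZNF792 and the histone deacetylase HDAC1, both at 0.10. RARG, a retinoic acid receptor, was nearest to CCND3 at 0.03, then DTD2 and PNPLA4. TBC1D22A, TGIF2-RAB5IF and RAB5IF were nearest to CDKN1B, at 0.03 to 0.04; the latter pair are overlapping genes. Over 6 arrays and so many genes, small distances arise for many genes, so these names describe a shared pattern only.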

How the data were processed

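Biotin-labelled cDNA from total RNA of 6 LP-1 cultures was hybridized to 1 array each. The authors deposited log-scale values, taken to be log2, for 135574 probe sets; RMA and Transcriptome Analysis Console are listed in the submitters' processing notes. Log base, versions and genome build: not given in the sources used here. In the annotation, 36176 probe sets had 1 symbol, 1119 had several and 98279 had none. Of the probe sets with 1 symbol, 25555 had a gene ID, and 25516 of these matched the GRCh38.p14 gene table.

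The brightest probe set stood for each symbol, and genes were tested if their mean over the arrays reached 3.77, the probe set median. The comparisons used limma 3.58.1 (R 4.3.3), 1 fit over 6 arrays, eBayes without a trend, a two-sided moderated test and Benjamini-Hochberg adjustment over 21070 genes; called means an adjusted p under 0.05. The fits were tested on simulated data. An exact permutation test of 2 against 2 arrays cannot go below p = 0.333 and was not used. The number of arrays limits the precision. Alternatives were the replicate block, a trend, other filters, median centring, mean of probe sets, 4-array fits and leaving out each array.

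The members and gene lists were chosen with earlier results of these data known. All members are named; of each list, up to 3 called genes per direction and comparison; neighbours where called; and the 3 likest genes of each called member. CCNE1, RB1, CDKN2B, FGFR3 and MDM2 lie outside this rule and were chosen after their values were seen; markers are named as examples.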

Additional observations from a re-analysis of the deposited data

Results flagged for a closer look

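The differences from Ctrl were not the same in the SA and LA groups for 4 members, by the limma test of LA minus SA, in which Ctrl cancels. The difference was 2.86 for CDKN2A (adjusted p = 0.00158), 1.51 for CDK6 (0.00519), 0.68 for CDKN1B (0.0379) and -0.72 for CCND3 (0.025). With replicate number as a block, CDKN2A (adjusted p = 0.00118) and CDK6 (0.0106) passed, and CDKN1B (0.139) and CCND3 (0.113) did not. For CDKN2A both SA arrays lay below and both LA arrays above the Ctrl arrays, and for CCND3 both SA arrays lay above and both LA arrays below. All 4 had non-overlapping SA and LA arrays, as did 57.5% of all genes tested. SA cells also differ in time label from both LA and Ctrl cells, so acid culture and time in culture cannot be told apart here.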

How the results depend on the processing

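Over the alternatives, 67 of 91 recomputed values of the 7 called member differences stayed called in the same direction and 24 kept the direction but lost the call. These values include repeats, as leaving out an array of the group outside a comparison gives the 4-array fit again. The replicate block lowered the genes called from 3113 to 1347 in SA against Ctrl, from 675 to 279 in LA against Ctrl and from 3360 to 1823 in LA against SA, and the members called from 2 to 1, from 1 to 0 and from 4 to 2. No filter on low values left 0 members called in LA against Ctrl. Leaving out 1 array gave 1134 to 2486, 195 to 674 and 1503 to 2931 genes, and 1 to 2, 0 to 1 and 2 to 3 members. The cause of these losses was not tested, except that fewer arrays or residual degrees of freedom (2 in place of 3) remain by construction.

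Replicate numbers correlated negatively between groups (replicate 2 minus replicate 1, over genes: -0.57 for Ctrl and SA, -0.47 for Ctrl and LA, -0.41 for SA and LA), and the deposited values hold almost no difference along replicate number, so the numbers are tied across groups in these values. The labels do not say how. If a replicate term was subtracted, a fit without the block counts 1 residual degree of freedom too many and its p-values are too small. Crossed numbers were added after seeing the data: crossing those of Ctrl, SA or LA called 3932, 3915 and 3028 genes in SA against Ctrl, 829, 825 and 476 in LA against Ctrl and 4001, 4012 and 3296 in LA against SA, and crossing LA left 0 members in LA against Ctrl. CDKN1B in SA against Ctrl passed with a trend (limma adjusted p = 0.0437) and with a higher filter (0.0489).

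Signs turned only for uncalled differences. Centring gave -0.0006 for CCND1 in LA against Ctrl. Leave-one-out ranges crossed 0 for CCND1 in LA (-0.13 to 0.14) and SA (-0.22 to 0.0511), CCND2 in LA (-0.26 to 0.0695), CDKN1B in LA (-0.0093 to 0.23), CDKN2D in LA (-0.16 to 0.15) and SA (-0.005 to 0.33), all against Ctrl, and CDK4 in LA against SA (-0.29 to 0.027). Detection calls were not used here, so for CCND1 and CDKN1A, and in part for the dim CDKN2D, signal over background is the limit.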

Other observations

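Of 8 tested MuvB core and partner genes, 1 rose and 2 fell in SA against Ctrl, and 0 rose and 1 fell in LA; with the block 2 fell in SA and the other calls were lost. Among 19 tested atypical cyclins and CDKs, 1 rose and 3 fell in SA against Ctrl, and 2 rose and 0 fell in LA (medians 0.02 and -0.07). With the block 1 rose and 0 fell in SA, and 1 rose in LA. Beside both lists, limma without the block called 6.23% of all genes tested higher and 8.55% lower in SA, and 1.61% and 1.59% in LA. CDK17 rose by 1.41 ± 0.14 in SA and by 1.22 ± 0.14 in LA (limma adjusted p = 0.00428 and 0.014, and 0.0131 and 0.0522 with the block). CDK14, a membrane-linked kinase that binds cyclin Y, rose by 1.48 ± 0.16 in LA (adjusted p = 0.0119). CDK9, the elongation kinase, fell by 0.93 in SA (adjusted p = 0.0108, and 0.0528 with the block).

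Of 9 tested genes linked to cell cycle exit, 3 rose and 1 fell in SA, and 2 rose and 0 fell in LA against Ctrl (2 and 0, and 2 and 0, with the block). The same shares of all genes tested apply here: 6.23% higher and 8.55% lower in SA, and 1.61% and 1.59% in LA. YPEL3, a growth suppressor, rose by 2.28 ± 0.22 in SA and by 1.70 ± 0.22 in LA, and both passed with the block. YPEL5 rose by 1.76 and TOB1, an antiproliferative protein, by 0.89 in SA, the latter with an adjusted p of 0.0632 with the block. In the list of 11 tested genes that silence or control INK4A and ARF, ID1, an inhibitor of E proteins known to repress p16, rose by 1.21 ± 0.19 in SA and by 2.53 ± 0.19 in LA, both also called with the block. ETS2, an activator of p16, rose by 1.43 ± 0.24 in SA and was lower in LA than in SA by a log2 difference of -1.86. EZH2, a polycomb methyltransferase, was higher in LA than in SA by 0.93 (adjusted p = 0.0226, and 0.0626 with the block). KDM2B, also in this list, rose by 0.84 in SA (limma adjusted p = 0.0133, and 0.0722 with the block). It was lower in LA than in SA by a log2 difference of -0.59 (0.0314, and 0.174 with the block). TBX3 was higher in LA than in SA by 1.01 (0.035, and 0.0679 with the block). Of the 11 genes, 3 rose and 0 fell in SA, and 1 rose and 0 fell in LA against Ctrl (2 and 1 rose with the block). CDKN2A went down in SA and up in LA over the same groups, and a link to these genes was not tested. Of 9 TGF-beta and SMAD genes, SKIL, a SMAD repressor, was the 1 called against Ctrl, higher by 1.79 in SA and 1.08 in LA (adjusted p = 0.00785 and 0.117 with the block).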
